A study of Solanum lycopersicum with 84 samples.

Results

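In tomato (Solanum lycopersicum, cultivar M82), 66 of 34075 counted genes had a shoot transcript level that was at least 3-fold higher after nitrate supply, while their share of the root reads stayed nearly level. Hydroponic plants were moved to medium without N when 22 days old, and after 4 days of starvation and a treatment their roots and shoots were profiled by mRNA sequencing, in 4 groups of 3 libraries (either organ under −N or +N). Plants of the +N groups received fresh medium with nitrate for 6 h, and plants of the −N groups received fresh N-free medium in which chloride replaced the nitrate. All 4 groups therefore shared the starvation, each library pooled tissue from 4 plants, and a whole organ mixes many cell types, so that fewer cells of a type and less RNA per cell cannot be told apart.

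The members were chosen from the counts themselves. Counts were divided by the total of each library to give CPM, the counts that a gene would have in a library of 1000000. In shoots the mean of the +N libraries had to be at least 3 times the mean of the −N libraries and at least 2 CPM, with every +N library above every −N library. In roots both means had to be at least 2 CPM and their ratio, +N over −N, had to lie between 0.8 and 1.25. One gene, Solyc04g055200.3, was left out by the rule. Of 679 genes that met the shoot criteria, 540 also reached the root minimum, and 454 of those had a root ratio above the window against 19 below it. The window held the remaining 67 before the exclusion. Because these values made the choice, the +N against −N differences of the members in either organ are a description. Where counts of members past a fit's threshold are given for these differences or their interaction, they stand beside the share over all genes to describe the scale, and are no test of the members.

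Nitrate is taken up by roots, where part of it is reduced and part moves in the xylem to the shoot, and its arrival changes the transcription of genes for nitrogen uptake, carbon metabolism, translation and growth. In leaves, much of the nitrogen that is assimilated is built into the photosynthetic apparatus, above all into the enzyme rubisco and the proteins of the thylakoid membrane. Roots carry few of these proteins, and draw sugars from the shoot for glycolysis.

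**Figure D1:**
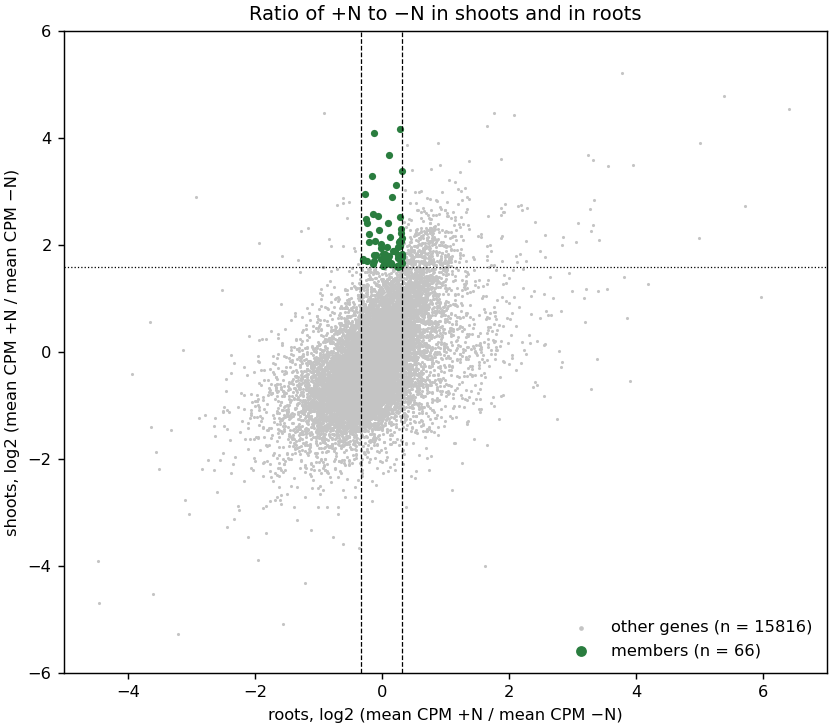
Each point is a gene, with the log2 ratio of its mean CPM (+N over −N) in roots on the horizontal axis and in shoots on the vertical axis, for the 15882 genes with a mean of at least 2 CPM in both root groups and in +N shoots and with reads in −N shoots. The dotted line is the 3-fold shoot bound and the dashed lines are the root window; the 66 members, in green, fill the band above the dotted line, and most genes past that line lie to the right of it.

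The libraries were alike in depth and clear in organ. Total counts ran from 17472760 to 21901432 per library, and replicates correlated at 0.989 or more. As a check of the organ labels, 19 nuclear photosystem and light-harvesting genes summed to 4280 to 6859 CPM in the shoot libraries and to 52.1 to 75.5 CPM in the root libraries, with 3 of them at 0 in every shoot library. The 7 genes described as root hair specific, root specific or of the Casparian strip summed to 333.8 to 466.0 CPM in roots. They summed to 30.9 to 35.1 CPM in −N shoots and 32.6 to 36.4 CPM in +N shoots, nearly all of it from a single peroxidase, and the other 6 summed to a mean of 0.733 CPM in −N shoots and 0.751 CPM in +N shoots.

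The word "steady" held for the members as shares of all root reads and less well after rescaling. The root ratio ran from 0.811 to 1.25 with a median of 1.09. It was above 1 for 45 members and below 1 for 21, and 20 members were at 1.2 or more. The −N and +N root libraries overlapped for 41 members, whereas every +N library was above every −N library for 21 and below for 4. No share over all genes is given beside these counts, and the root window shaped them, so they only describe the members. With TMM factors, which scale libraries to the typical gene rather than to the total, the median root log2 fold change of the members was 0.29 (range −0.14 to 0.49), against −0.01 over all genes tested in roots. At an adjusted p of 0.05 (edgeR's quasi-likelihood test, Benjamini-Hochberg), 31 of 66 members were called higher in +N roots, where 29.2% of the 21049 genes tested were, and 0 were called lower, where 28.8% were. At an unadjusted p of 0.05 in the same edgeR fit, 34 were higher and 0 lower, and DESeq2 called 28 higher and 0 lower after adjustment. No share over all genes is given for the unadjusted and DESeq2 counts, so they only describe the members. In the edgeR fit at an adjusted p of 0.05, 57.9% of all genes were called in either direction. The rule shaped these counts: TMM moved the median root log2 fold change of all genes from −0.18 on total counts to −0.01, which carried the window upward with it and left little room for a lower call. With total-count scaling the member counts were 18 higher and 2 lower, with no share over all genes given for that scaling. None of the 66 passed the stricter limits of an adjusted p of 0.015 and 2-fold in roots in any fit, which 12.6% of all genes passed with edgeR.

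When the rule itself was applied to TMM-scaled CPM, it found 107 genes, and 36 of the 66 members were among them. Those 36 include the genes described as rubisco activase, enolase, germin-like protein, expansin, methyltransferase, osmotin and proteinase inhibitor. The genes described as ribosomal protein L17, photosystem II subunit X, mitochondrial transcription termination factor, tetratricopeptide repeat protein and coiled-coil protein were not among the 36.

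Together the members took 0.302% ± 0.00412 (SD, n = 3) of the counted reads in −N shoots and 1.09% ± 0.00815 in +N shoots. In roots the same genes took 0.301% ± 0.00726 under −N and 0.328% ± 0.00812 under +N. The rule fixed the difference between the shoot groups and the level shares in roots. The nearly equal shares of the starved organs rested on the rubisco activase gene. Without the rubisco activase gene the shares were 0.214% and 0.788% in shoots, and 0.301% and 0.328% in roots.

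The shoot ratio had a median of 3.71 and a range of 3.02 to 18.1. It was under 4 for 39 members, at least 5 for 14 and at least 10 for 4. The lowest +N shoot library was between 1.89 and 15.8 times the highest −N shoot library (median 3.13). In the edgeR fit all 66 passed an adjusted p of 0.015 and 2-fold in shoots, limits that 13.4% of the 20689 genes tested passed in that direction, and all 66 had a larger +N difference in shoots than in roots at an adjusted p of 0.05 (22.9% of 22483 genes). Both counts follow from the choice of the genes.

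**Figure D2:**
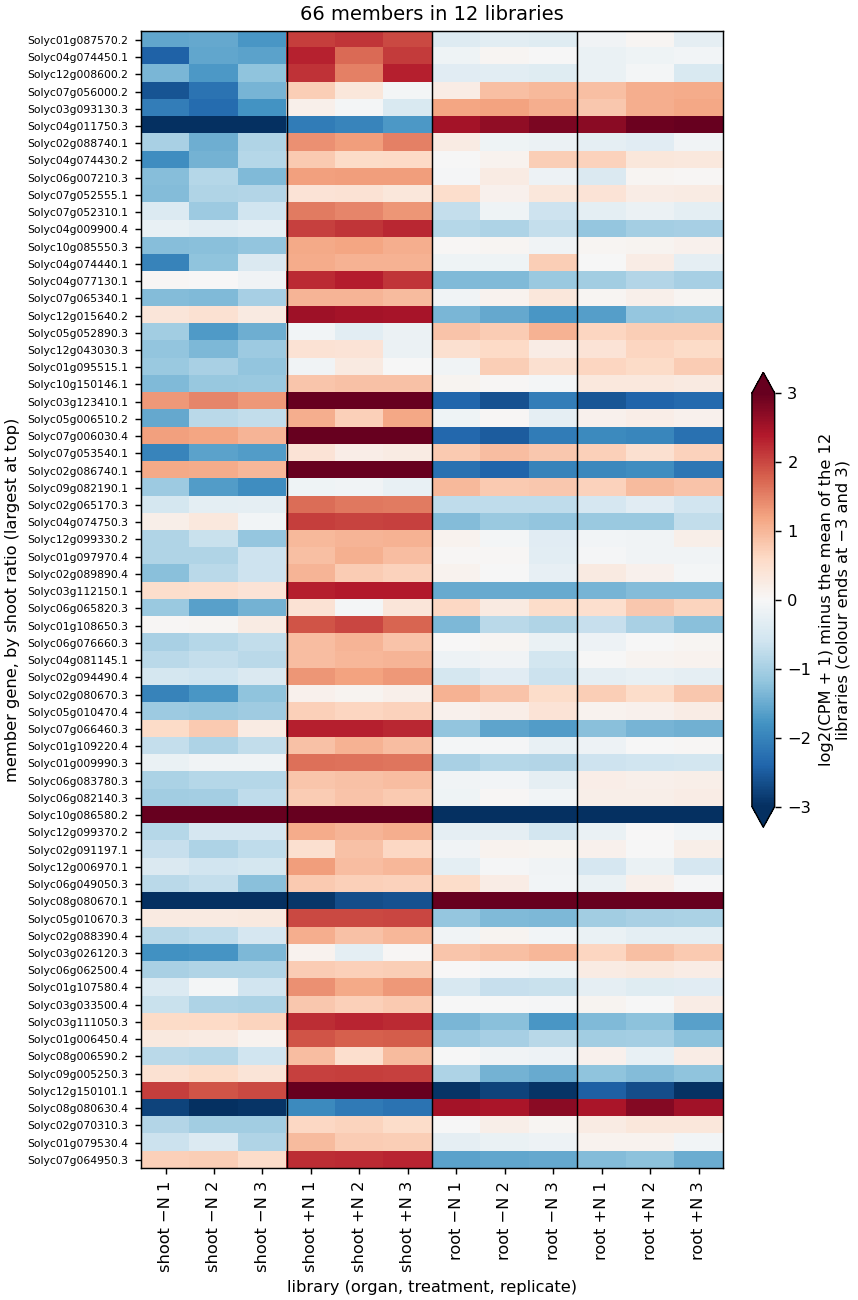
Rows are the 66 members ordered by shoot ratio, columns are the 12 libraries, and colour is log2(CPM + 1) minus the mean of the 12 libraries. Within each row the 3 shoot −N libraries are lower than the 3 shoot +N libraries and the 6 root libraries are close to each other, while the root block is redder than the shoot block in some rows and bluer in others.

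A name and function could be given to only 12 of the 66. The count table carries identifiers alone, and descriptions were available for 5112 genes, those on the study's lists of differentially expressed or histone-marked genes, so the 12 are a selection and not a sample of the set. The lists of genes differentially expressed in shoots were used here only in part, and a member without a description may stand on the rest of them. All 12 described members stand on at least 1 list of genes with a changed histone mark in shoots. Against 15 lists of genes built from the descriptions (ribosomal proteins, photosynthesis, transcription factors, transporters and others), the set held 1 ribosomal protein of 92 described, 2 of 65 photosynthesis genes, 1 of 100 cell wall genes and, through the words "ethylene-responsive", 1 gene among 360 listed as transcription factors that is described as a proteinase inhibitor. The other 11 lists, among them nucleotide synthesis, nitrogen assimilation, transporters, kinases and epigenetic regulators, held 0. In shoots, 33 of these ribosomal protein genes, 29 photosynthesis, 54 cell wall and 268 transcription factor list genes had enough reads to be tested. As 54 members have no description to match, the counts of members on the lists say nothing of the functions of the set as a whole.

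What differed most among the members was where they stood in the other organ. In −N plants, edgeR called 26 of the 66 lower in shoots than in roots at an adjusted p of 0.05 and 2-fold (18.4% of all genes tested) and 16 higher (20.1% of all genes). In +N plants 6 were called lower (22.4% of all genes) and 39 higher (23.2% of all genes). The rule asks for a root mean of at least 2 CPM, and so leaves out genes read in shoots alone. Among the members, the median log2 difference between shoots and roots was −0.76 under −N and 1.17 under +N.

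Taken gene by gene, 16 members were called higher in shoots under both treatments, 15 were called higher under +N and neither way under −N, and 8 were called lower in shoots under −N and higher in shoots under +N. A further 12 were called lower in −N shoots and neither way in +N, 6 were lower under both treatments, and 9 were called under neither. Over all 22483 genes tested, 23 went from lower to higher (0.102%), against 12.1% of the members. For higher under both treatments the shares were 24.2% of members and 17.35% of all genes, and for lower under both 9.09% and 15.5%. For higher under +N and neither way under −N they were 22.7% and 5.76%. For lower under −N and neither way under +N they were 18.2% and 2.75%. Called under neither treatment were 13.6% of members and 49.0% of all genes. A 3-fold shoot bound and a narrow root window move every member upward between the treatments. The floors of the rule also bear on the starting place, since roots had to reach 2 CPM under both treatments and shoots under +N alone, and 8 members had a −N shoot mean under 1 CPM.

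The same counts for related sets of genes put the members in context. Of the 454 genes that met the shoot criteria but had a root ratio above the window, 72 (15.9%) were called lower in −N shoots than in −N roots and 43 (9.47%) higher, with a median log2 difference of −0.47. Under +N, 35 of them (7.71%) were called lower in shoots and 160 (35.2%) higher, and 4 went from lower to higher. Of the 75 genes raised at least 3-fold in both organs, 18 (24%) were called lower and 18 higher in −N shoots, and 24 (32.0%) lower and 16 (21.3%) higher in +N shoots. The 48 genes with the mirrored pattern, raised in roots and level in shoots, had 9 (18.8%) called lower and 21 (43.8%) higher in −N shoots, and 26 (54.2%) lower and 11 (22.9%) higher in +N shoots. The members had the largest share called lower in −N shoots (39.4%) of the 4 sets. In the mirrored set the responding organ was the root, and 43.8% of its genes were lower in −N roots than in −N shoots. The floors of the sets were unlike. The mirrored rule asked for 2 CPM in both shoot groups and in +N roots, and not in −N roots. For the genes raised in both organs the floor held in the +N groups alone. The 454 genes had the same floors as the members. Whether the sets differ was not tested.

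**Figure D3:**
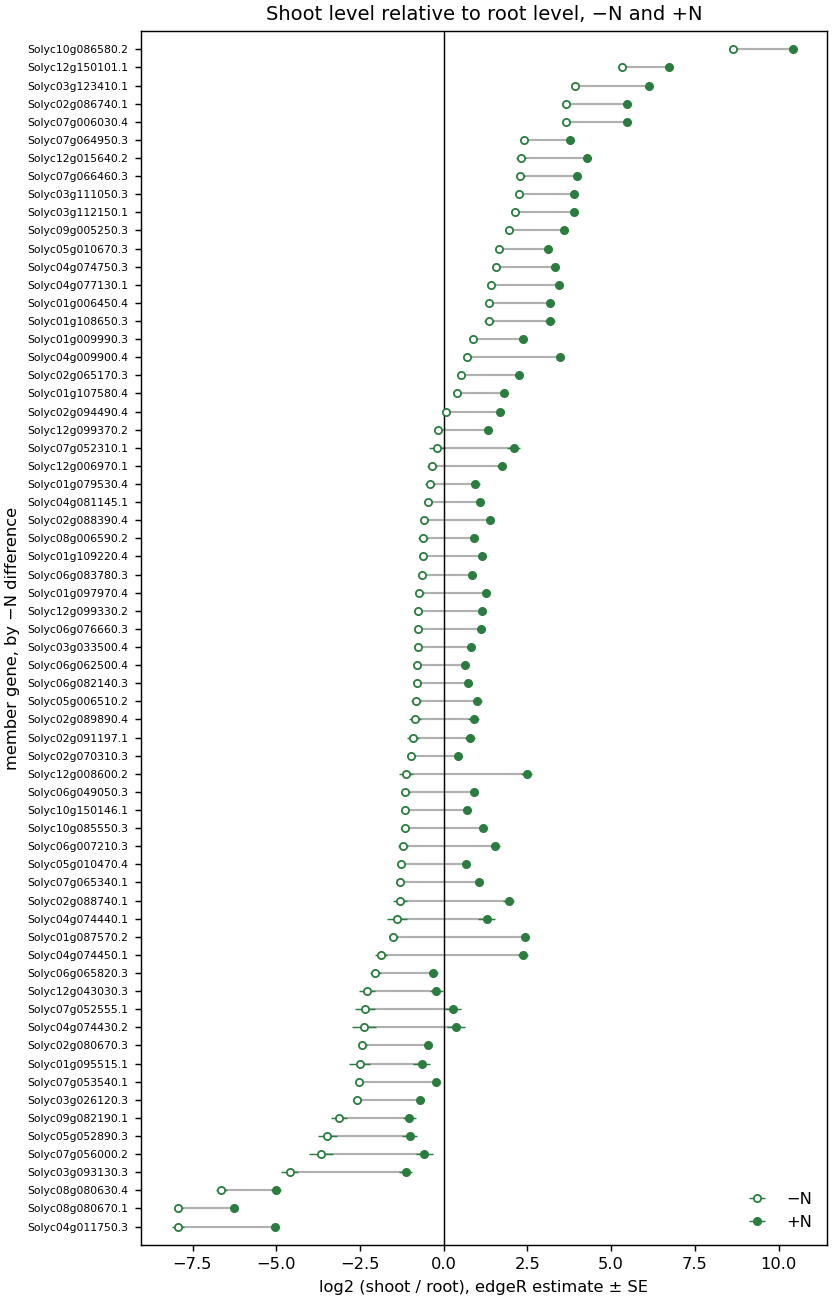
Each row is a member, and the points are its log2 difference between shoots and roots under −N (open) and +N (filled) with the standard error from edgeR. Every filled point is to the right of its open point. They run from −7.92 (−N) and −6.26 (+N) for Solyc08g080670.1 to 8.64 and 10.4 for Solyc10g086580.2, and 33 members cross from below to above in mean CPM.

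The 16 members that were higher in shoots under both treatments had mean levels of 43.2 to 2971 CPM in +N shoots and of 2.36 to 111.4 CPM in +N roots. Solyc10g086580.2 is described as rubisco activase, the chloroplast protein that frees the active sites of rubisco from bound sugar phosphates. It read 869.2, 912.0 and 875.7 CPM in −N shoots and 2981, 3080 and 2852 CPM in +N shoots. The root libraries gave 2.62, 2.11 and 2.42 CPM under −N and 2.44, 2.80 and 1.83 CPM under +N. The shoot groups were far apart and the root groups overlapped. The shoot mean CPM was 3.35-fold higher under +N. With TMM scaling, edgeR gave a larger shoot log2 fold change of 2.04 ± 0.05 (SE), against 1.75 on total counts. This gene lay near the floor of 2 CPM that the rule set for roots.

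Solyc12g150101.1 encodes PsbX, a small subunit of photosystem II, the complex that splits water in the thylakoid membrane. Its shoot libraries read 128.6, 111.7 and 119.2 CPM under −N and 344.5, 379.2 and 380.6 CPM under +N, a ratio of 3.07. Its root libraries read 2.96, 3.48 and 3.005 CPM under −N and 4.58, 3.84 and 2.92 CPM under +N, so that they overlapped. PsbX is also on the list of photosystem genes used to check the organ labels. Of the other 18 genes on it, 12 had every +N shoot library above every −N shoot library, with shoot ratios of 1.15 to 4.07. Another 3 were at 0 in every shoot library, and Solyc12g006140.2 had a ratio of 0.876. No share over all genes is given beside this count, so it only describes the list.

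Solyc03g123410.1, described as a germin-like protein of a family of secreted cupin proteins, read 134.2, 150.0 and 132.8 CPM in −N shoots and 578.9, 578.5 and 605.8 CPM in +N shoots. Its root libraries read 9.49, 7.93 and 12.1 CPM under −N and 8.27, 9.28 and 9.84 CPM under +N. All the +N root values were within the spread of the −N root values. The shoot ratio was 4.23 and the root ratio 0.928.

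Solyc07g006030.4, a member of the tetratricopeptide repeat superfamily, whose repeats bind other proteins, read 154.7, 149.4 and 132.0 CPM in −N shoots and 624.4, 597.4 and 613.4 CPM in +N shoots. In roots its libraries read 11.9, 10.6 and 14.4 CPM under −N and 16.5, 15.98 and 13.1 CPM under +N. Its root ratio of 1.23 was close to the upper bound, yet the root groups overlapped.

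Solyc12g015640.2 is described as a mitochondrial transcription termination factor, a family that in plants acts on gene expression inside mitochondria and chloroplasts. It read 13.3, 14.4 and 12.4 CPM in −N shoots and 64.3, 61.9 and 61.5 CPM in +N shoots, a ratio of 4.68. The root libraries read 3.36, 2.89 and 2.36 CPM under −N and 2.55, 4.01 and 4.06 CPM under +N, again with overlap.

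Of the shoot-high members with no description, Solyc05g010670.3 had mean levels of 268.4 ± 2.79 CPM (SD, n = 3) in −N shoots and 877.9 ± 8.59 CPM in +N shoots, and its root means were 90.7 ± 6.56 and 111.4 ± 3.54 CPM. For this gene all +N root libraries (107.5, 112.4 and 114.4 CPM) were above all −N root libraries (98.3, 87.0 and 86.8 CPM). Solyc02g086740.1 had means of 51.2 ± 2.75 and 213.0 ± 7.61 CPM in shoots, and of 4.34 ± 0.715 and 5.25 ± 0.648 CPM in roots, with overlapping root libraries.

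The 8 members that passed from lower in shoots to higher in shoots had shoot ratios of 4.88 to 18.1, and included the 3 largest ratios of the whole set. The 1 of them with a description was Solyc10g085550.3, annotated as enolase, the glycolytic enzyme that forms phosphoenolpyruvate, and matched to Arabidopsis LOS2. Enolase read 29.8, 30.5 and 31.9 CPM in −N shoots and 163.3, 169.7 and 158.8 CPM in +N shoots. The root libraries gave 75.7, 76.9 and 68.2 CPM under −N and 77.2, 78.5 and 80.9 CPM under +N. Its shoot level was thus below its root level in every starved library and above it in every supplied library, and its +N root libraries were narrowly above its −N root libraries. On the log2 scale of the fit the shoot-to-root difference was −1.17 ± 0.06 (SE) under −N and 1.19 ± 0.05 under +N, and the +N difference was 2.71 ± 0.06 in shoots and 0.26 ± 0.06 in roots.

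Solyc01g087570.2 had the largest shoot ratio, 18.1. Its libraries read 2.32, 2.40 and 1.92 CPM in −N shoots and 40.1, 42.3 and 37.8 CPM in +N shoots. In roots they read 6.54, 6.86 and 6.6 CPM under −N and 8.16, 9.11 and 7.10 CPM under +N. The root groups did not overlap either, although their means differed by a ratio of 1.22 only.

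Solyc12g008600.2 read 5.68, 4.19 and 6.48 CPM in −N shoots and 75.8, 47.8 and 85.8 CPM in +N shoots, a ratio of 12.8. Its root libraries read 12.6, 12.9 and 12.4 CPM under −N and 14.0, 15.5 and 11.5 CPM under +N, and overlapped. The +N shoot libraries spread widely, and the lowest of them was still above every root and every −N shoot library. The other 5 genes of this class were Solyc02g088740.1, Solyc04g074440.1, Solyc04g074450.1, Solyc06g007210.3 and Solyc07g065340.1, with shoot ratios of 4.88 to 17.02 and root ratios of 0.831 to 0.974.

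Among the members, 3 stood next to each other in identifier order on chromosome 4: Solyc04g074430.2, Solyc04g074440.1 and Solyc04g074450.1. None of them has a description here. Solyc04g074450.1 read 3.46, 7.10 and 6.85 CPM in −N shoots and 117.1, 76.9 and 102.2 CPM in +N shoots, a ratio of 17.02. In roots it read 21.1, 24.1 and 22.8 CPM under −N and 20.0, 21.0 and 21.6 CPM under +N, with overlap.

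Solyc04g074440.1 read 1.53, 3.46 and 6.62 CPM in −N shoots and 21.3, 20.1 and 20.2 CPM in +N shoots. Solyc04g074430.2 read 0.247, 0.691 and 1.51 CPM in −N shoots and 6.78, 5.75 and 5.82 CPM in +N shoots. Replicate 3 was the highest −N shoot library for both and replicate 1 the lowest. In roots Solyc04g074440.1 read 8.30, 8.42 and 15.9 CPM under −N and 9.20, 10.98 and 7.44 CPM under +N, and Solyc04g074430.2 read 3.47, 3.82 and 6.55 CPM under −N and 6.24, 4.67 and 4.58 CPM under +N. All 3 genes had overlapping root groups. Without −N shoot replicate 3 the shoot log2 fold change of Solyc04g074430.2 went from 3.17 to 3.96.

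Nearby, Solyc04g074410.2, which is no member, had a shoot ratio of 10.5 (12.6, 18.8 and 20.4 CPM against 186.3, 159.4 and 200.3 CPM). Its root libraries, 35.5, 41.8 and 44.7 CPM under −N and 60.2, 53.0 and 56.7 CPM under +N, put its root ratio above the window. Solyc04g074420.1, between it and the 3 members, is described as a phosphate-responsive protein of the EXORDIUM family and had a shoot ratio of 2.39. The run of 5 adjacent genes therefore had higher levels in all +N than in all −N shoot libraries, while Solyc04g074400.1 before it and Solyc04g074460.1 and Solyc04g074470.1 after it did not. Whether adjacent genes that are near-copies shared reads could not be examined, because the treatment of reads with several matches is not stated, and the separate values of this run are uncertain.

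**Figure D4:**
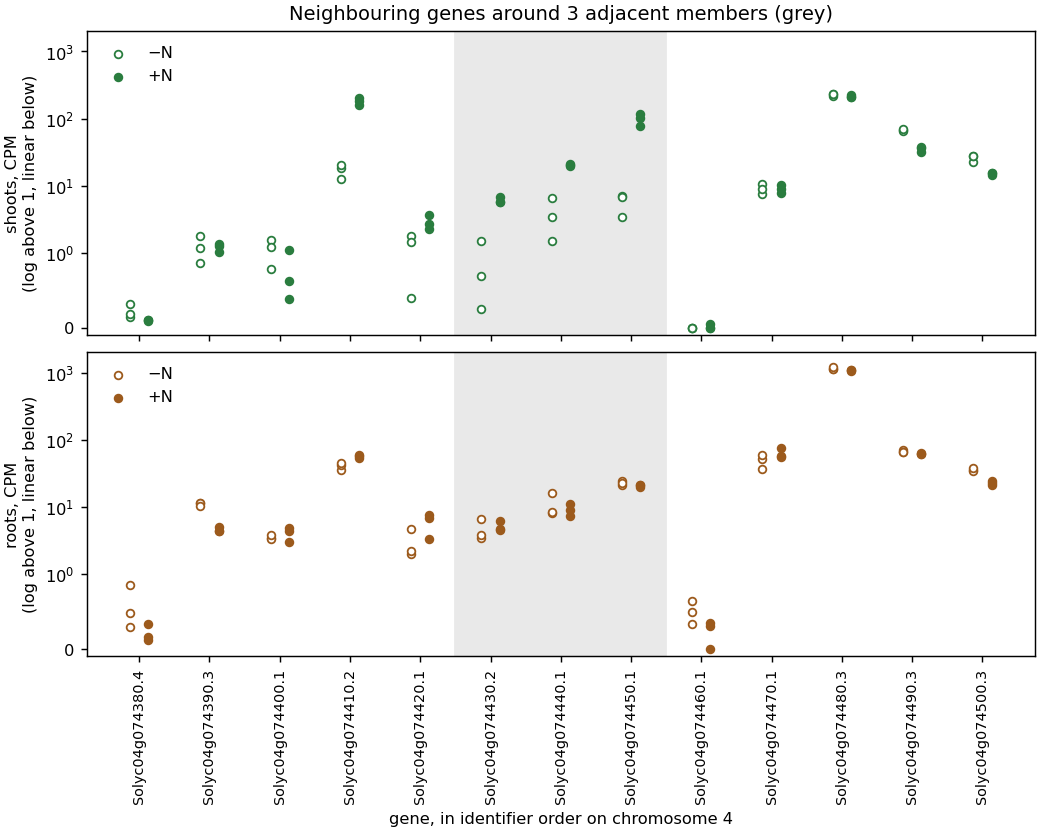
The 13 genes around the 3 adjacent members (grey) in identifier order along chromosome 4, with CPM of each shoot library above and each root library below, −N open and +N filled, on an axis that is logarithmic above 1 CPM and linear below. The filled shoot points of Solyc04g074410.2 to Solyc04g074450.1 lie above the open ones, and the root points of the 3 members overlap.

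The 12 members that were lower in −N shoots and called neither way in +N shoots came within 2-fold of the root level there. Solyc03g026120.3, a methyltransferase that uses S-adenosylmethionine as its methyl donor, read 7.65, 7.93 and 11 CPM in −N shoots and 32.0, 23.9 and 30.5 CPM in +N shoots. In roots it read 53.6, 55.7 and 60.2 CPM under −N and 47.2, 56.6 and 51.9 CPM under +N. All shoot libraries remained below all root libraries of this gene.

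Solyc06g049050.3 is described as expansin, a cell wall protein that loosens the wall as cells grow. It read 12.3, 13.2 and 8.72 CPM in −N shoots and 39.2, 37.0 and 36.6 CPM in +N shoots. The root libraries gave 33.3, 26.4 and 21.0 CPM under −N and 19.4, 24.9 and 21.6 CPM under +N. The root groups overlapped, and with a root ratio of 0.818 it lay just inside the lower end of the window. Over the list of 54 cell wall genes tested in shoots, 8 were called higher and 4 lower in +N at an adjusted p of 0.015 and 2-fold (edgeR), with a median log2 fold change of 0.05. Of all genes tested in shoots, 13.4% were called higher and 7.62% lower, and of the described genes 20.3% and 16.8%. The counts thus do not set the cell wall list apart.

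Solyc07g056000.2, without a description, had 1 of the 4 shoot ratios above 10, and it depended on few reads. It read 0.148, 0.507 and 1.64 CPM in −N shoots and 10.6, 7.82 and 5.66 CPM in +N shoots, against root values of 7.11, 11.9 and 12.7 CPM under −N and 11.9, 13.7 and 13.9 CPM under +N. Its shoot log2 fold change of 3.65 ± 0.38 (SE) became 4.86 without −N shoot replicate 3. Solyc07g053540.1, of the same class, was read more deeply, with means of 36.6 ± 5.05 and 153.1 ± 11 CPM in shoots and of 223.9 ± 11.3 and 194.8 ± 17.4 CPM in roots.

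The 6 members lower in shoots under both treatments had their highest levels in roots, and in shoots they had mean levels of only 0.402 to 1.93 CPM under −N and 2.46 to 6.36 CPM under +N. Solyc08g080670.1, described as a pathogenesis-related protein matched to Arabidopsis osmotin, a defence protein with antifungal activity, read 2.03, 1.11 and 2.65 CPM in −N shoots and 5.47, 6.69 and 6.92 CPM in +N shoots. The root libraries gave 444.1, 491.8 and 559.8 CPM under −N and 503.1, 533.2 and 566.7 CPM under +N. The shoot groups were apart at levels far under those in roots, where the groups overlapped.

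Solyc08g080630.4, an ethylene-responsive inhibitor of serine proteinases, read 1.14, 0.369 and 0.913 CPM in −N shoots and 2.89, 2.36 and 2.14 CPM in +N shoots. Its root libraries read 82.3, 79.7 and 95.3 CPM under −N and 79.1, 98.8 and 83.8 CPM under +N. Solyc04g011750.3, without a description, read 0.198, 0.461 and 0.548 CPM in −N shoots and 2.998, 3.297 and 4.17 CPM in +N shoots, and between 94.4 and 134.6 CPM in the root libraries. The level of root marker genes in the shoot libraries is given beside these genes, whose reads are mostly in roots. The summed level of the root list in the shoots lay between 30.9 and 35.1 CPM under −N and between 32.6 and 36.4 CPM under +N. Of the 7 genes, 0 had every +N shoot library above every −N shoot library. At 0 in all −N shoot libraries were 2 of the 7, against 5 in all +N shoot libraries. The genes at 0 under +N alone had 4, 2 and 1 reads over all −N shoot libraries, too few to compare the treatments. The part of root RNA in the shoot libraries was not tested.

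The osmotin and proteinase inhibitor genes lie 4 positions apart in identifier order on chromosome 8. Of the 3 genes between them, Solyc08g080660.1 just missed membership with a shoot ratio of 2.999 (from 0.908 to 2.72 CPM) and root means of 882.3 and 970.1 CPM. Solyc08g080640.2 had a shoot ratio of 2.49 and root means of 156.2 and 163.6 CPM. Solyc08g080650.3 had a shoot ratio of 1.99, and its root mean went the other way, from 128.7 to 66.3 CPM. In all 5 genes of this stretch every +N shoot library was above every −N shoot library, and all 5 were lower in shoots than in roots, whereas Solyc08g080620.1 before them and Solyc08g080680.4 after them had shoot ratios of 0.706 and 0.741. The other 3 genes of the root-high class were Solyc03g093130.3, Solyc05g052890.3 and Solyc09g082190.1, with root means of 5.54 to 12.7 CPM. Of these, Solyc03g093130.3 had the largest shoot ratio, 9.78, from 0.484 ± 0.275 to 4.73 ± 1.2 CPM. Its edgeR log2 fold change, with TMM scaling, went from 3.57 to 4.09 without −N shoot replicate 3.

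The remaining 24 members were called neither way between −N shoots and −N roots. Solyc06g083780.3, a ribosomal protein L17 of the large subunit, read 113.7, 120.0 and 120.1 CPM in −N shoots and 392.1, 402.2 and 415.3 CPM in +N shoots. In roots it read 204.9, 205.6 and 181.2 CPM under −N and 250.2, 241.9 and 246.9 CPM under +N. Both organs had all +N libraries above all −N libraries, and its root ratio of 1.249 was the closest to the upper end among the members. Of 33 ribosomal protein genes tested in shoots, 25 were called higher and 0 lower in +N (edgeR, adjusted p of 0.015 and 2-fold), with a median log2 fold change of 2.09, and in roots 11 of 34 were called higher and 0 lower. These genes are described only because they were on lists of responding or marked genes, and of all described genes tested in shoots 20.3% were called higher, so the list is no independent evidence of its direction.

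Solyc02g094490.4, described as a coiled-coil protein, read 40.7, 38.9 and 43.2 CPM in −N shoots, which overlapped the −N root values of 40.5, 46.3 and 37.3 CPM. Its +N shoot libraries read 150.5, 137.0 and 147.2 CPM and its +N root libraries 49.0, 50.7 and 48.9 CPM. Solyc02g070310.3, without a description, was among the 6 members with the most reads in +N shoots, and had means of 165.3 ± 10.4 and 504.5 ± 22.7 CPM in shoots and of 345.8 ± 23.2 and 407.7 ± 14.2 CPM in roots. Solyc04g009900.4 combined a shoot ratio of 5.61 with a root ratio of 0.840: its shoot libraries read 16.7, 15.8 and 16.7 CPM under −N and 85.6, 90.8 and 99.2 CPM under +N, and its root libraries 10.5, 9.89 and 11.6 CPM under −N and 8.27, 9.22 and 9.44 CPM under +N. On total-count CPM its root groups did not overlap, in the direction opposite to the shoots. With TMM scaling its root log2 fold change was −0.09 ± 0.12 (SE), and edgeR did not call it lower in +N roots at an adjusted p of 0.05.

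**Figure D5:**
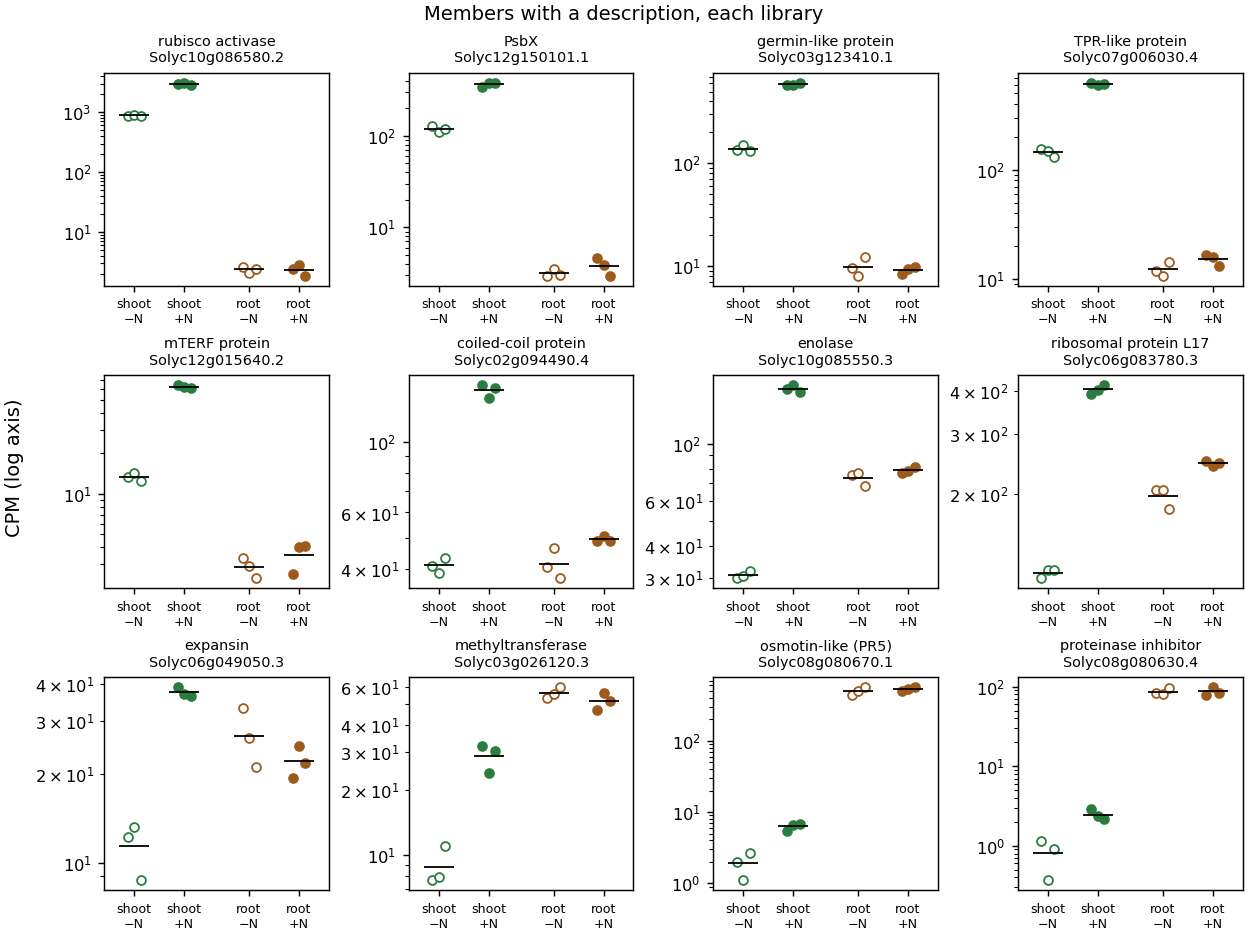
CPM of the 12 members with a description in each library, on log axes that differ between panels, with −N open, +N filled and black bars for the means. In every panel the filled shoot points are above the open shoot points, from rubisco activase (means of 885.7 and 2971 CPM in shoots, 2.38 and 2.36 CPM in roots) to the proteinase inhibitor (0.806 and 2.46 CPM in shoots, 85.8 and 87.3 CPM in roots).

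At the bounds of the rule the values were continuous. The members nearest the shoot bound were Solyc07g064950.3 (3.02) and Solyc01g079530.4 (3.04), and the genes nearest outside, Solyc08g080660.1 and Solyc10g084310.2, each had a ratio of 2.999. At the lower end of the root window Solyc12g006970.1 (0.811) and Solyc06g049050.3 (0.818) were inside, and Solyc05g054610.1 (0.769) and Solyc02g089350.3 (0.743) outside. At the upper end Solyc06g083780.3 and Solyc01g095515.1 (1.249 and 1.248) were inside, and Solyc08g076340.3 and Solyc05g055640.4 (1.254 each) outside.

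Histone modifications had been profiled in the same experiment, and lists of shoot genes whose marks differed between +N and −N allowed a look at a readout that the rule did not use. Acetylation of histone H3 at lysine 27 (H3K27ac) marks active genes, and trimethylation at lysine 36 (H3K36me3) covers the bodies of transcribed genes. On the list of genes with increased H3K27ac over the gene itself were 6 members (9.09%), among 329 of the 20689 genes tested in shoots (1.59%), so that members made up 1.82% of that list. They were the genes for rubisco activase, PsbX, enolase, the mitochondrial transcription termination factor, osmotin and the proteinase inhibitor. The germin-like gene, Solyc03g123410.1, was on the list of decreased H3K27ac, which held 258 tested genes, although its shoot level was 4.23-fold higher in +N. On the list of increased H3K36me3 were 3 members (4.55%), the methyltransferase, expansin and tetratricopeptide repeat genes, among 49 tested genes (0.237%), and members made up 6.12% of it. The tetratricopeptide repeat gene was also 1 of 36 tested genes with increased H3K4me3, a mark of active promoters. The ribosomal protein gene was 1 of 51 with increased H3K27me3, in general a mark of repressed genes. The paper reported that most shoot genes with increased H3K27me3 over the gene were up-regulated, several ribosomal protein genes among them. The coiled-coil gene was 1 of 232 with increased H3K9me2 upstream. Members in all organ classes were thus on these lists, no member was on the remaining lists of the 5 marks, and the other 54 members were on none. These counts are a description of overlap, and no test was made of them. The shares beside them are over all genes tested in shoots, and not over genes raised in shoots. The paper reported significant overlap of up-regulated genes with those gaining H3K27ac, H3K36me3 or H3K4me3. The shares therefore do not set the members apart from other raised genes.

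By identifier, the members lay on 11 of the 12 chromosomes, with 9 each on chromosomes 1 and 2, 8 each on chromosomes 4 and 7, 7 each on chromosomes 6 and 12, and 0 on chromosome 11, which holds 6.65% of the genes with a mean of at least 1 CPM. Apart from the 3 adjacent genes on chromosome 4, no 2 members were next to each other in the table.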

How the data were processed

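Members and gene lists were chosen with earlier results of these data known. The deposited table holds raw read counts per gene for the 12 mRNA libraries, made by the authors with Cutadapt, TopHat2 (tomato genome build 4.0) and htseq-count. Versions, strand and the counting of reads with several matches are not given in the methods or labels. The chromatin libraries were not analysed here.

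CPM used each library's total. edgeR 4.0.16 (R 4.3.3) quasi-likelihood tests with TMM scaling were fitted to all genes, per organ for +N against −N and over 12 libraries for organ differences and their interaction, after filterByExpr (minimum count 10, total 15), with Benjamini-Hochberg adjustment; calls used an adjusted p of 0.015 and 2-fold, or 0.05 where stated. DESeq2 1.42.0, other scalings, no filter, a replicate block, other rule bounds and leaving out each library were tried.

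The genes named are up to 4 members of each gene list, the 8 largest shoot ratios, the 6 highest +N shoot levels, those nearest each bound, and, chosen after their values were seen, the other described members, neighbours of members and examples of organ classes. List patterns were widened to capital letters after a first search. Identifiers were matched to descriptions from the supplementary lists; 0 of 34075 matched the RefSeq gene table, so no positions or sequences are given. Replicates differed by more than counting noise (chi-square per degree of freedom 2.50 or more). Within an organ, −N and +N libraries of the same replicate number were no more alike than others (correlations of −0.03 to 0.02). With 3 replicates this cannot show that there was no pairing. Whether root and shoot libraries of a number shared plants was not examined, and the main fits treated them as independent.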

Additional observations from a re-analysis of the deposited data

Results flagged for a closer look

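All 66 members had a +N against −N difference that was larger in shoots than in roots by the interaction term of the edgeR fit over 12 libraries, at an adjusted p of 0.05, where 22.9% of 22483 genes were called in that direction. The rule asked for a 3-fold ratio in 1 organ and a ratio near 1 in the other, and so fixed this count. The interaction log2 difference had a median of 1.84 and ran from 1.35 to 4.24. With 3 libraries per group, no search for single outlying libraries was made.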

How the results depend on the processing

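Which genes belong to the set depended on the bounds and the scaling. A root window of 0.9 to 1/0.9 left 27 genes and a window of 2/3 to 3/2 gave 188, a shoot ratio of 2 gave 369 and a ratio of 4 left 27. CPM from TMM library sizes gave 107 genes and from DESeq2 size factors 106, of which 36 each were among the 66. Leaving out a library gave 61 to 75 genes, 55 to 66 of them shared with the 66. Total-count scaling, which moved the median of all genes to −0.30 in shoots and −0.18 in roots on the log2 scale, called 20 members in roots, 18 higher and 2 lower, in place of 31 higher, and gave a median root log2 fold change of 0.12 in place of 0.29. With a library left out, the members called in roots ran from 25 to 31 and that median from 0.27 to 0.32. The counts of members called in shoots (66) and by the interaction (66) were the same under every alternative run. Members lower in shoots than roots ran from 25 to 27 under −N and from 4 to 6 under +N with a library left out, and those higher were 16 and 38 to 40. The replicate block moved no count past 1.5 times; with it 66 members were called in shoots. The shoot log2 fold changes of the 21 named members that the rule for naming picked stayed between 1.55 and 4.86 over 11 alternatives each. Counts of 26 to 144 reads, summed over 3 libraries, were the least that any member had in −N and +N shoots, so ratios of the lowest members are the least certain.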
